A study of Mus musculus with 8 samples.

Results

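The genes described here are 9 members of the JAK kinase and STAT transcription factor families: Jak1, Jak2, Tyk2, Stat2, Stat3, Stat4, Stat5a, Stat5b and Stat6. They were found by gene symbol among the 53647 Ensembl mouse gene identifiers of the count files, and all 9 were present. The RNA came from primary myotubes of wild-type mice, the multinucleated fibres that form when cultured muscle precursor cells fuse. Per the labels' protocols, precursors from the limb muscle of pups aged 2 to 3 days were expanded in serum with basic fibroblast growth factor and then differentiated in medium with 5% horse serum, so the control cells had that medium too. There were 4 groups of 2 libraries: control, interleukin 6 (IL6), leukaemia inhibitory factor (LIF) and oncostatin M (OSM). Each cytokine was given at 250 ng/ml for 48 h, and cells were harvested 72 h after differentiation. The labels number the libraries of a group but do not say whether they came from separate animals or dishes, so the p-values measure the spread between these libraries, which may be technical.

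JAKs are tyrosine kinases bound to the inner part of cytokine receptors that have no kinase of their own. When a cytokine joins its receptor chains, the JAKs phosphorylate each other and the receptor, and STAT proteins dock there, are phosphorylated, pair up and move into the nucleus to bind DNA. IL6, LIF and OSM all signal through the shared receptor chain gp130, with STAT3 as their best known STAT. In muscle, JAK and STAT signalling is known for roles in precursor cell growth and in muscle wasting. RNA counts measure transcripts, not the phosphorylation through which these proteins act.

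The promoter sequences of 4 members are shown because results described below turn on these members: Jak2 and Stat2 were higher with both OSM and LIF, Tyk2 was higher with OSM than with LIF, and STAT3 is the factor these cytokines are best known to activate. Each run is the 250 bases before the gene's start in the RefSeq table of build GRCm38.p6, written 5′ to 3′ on the gene's own strand. Capitals mark a match to a motif.
Stat2 (chr10:128270248-128270497, plus strand): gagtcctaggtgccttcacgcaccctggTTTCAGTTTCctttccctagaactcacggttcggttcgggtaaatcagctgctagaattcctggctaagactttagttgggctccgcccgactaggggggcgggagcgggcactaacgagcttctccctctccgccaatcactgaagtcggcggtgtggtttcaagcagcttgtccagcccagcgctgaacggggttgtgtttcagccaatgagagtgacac
Jak2 (chr19:29251553-29251802, plus strand): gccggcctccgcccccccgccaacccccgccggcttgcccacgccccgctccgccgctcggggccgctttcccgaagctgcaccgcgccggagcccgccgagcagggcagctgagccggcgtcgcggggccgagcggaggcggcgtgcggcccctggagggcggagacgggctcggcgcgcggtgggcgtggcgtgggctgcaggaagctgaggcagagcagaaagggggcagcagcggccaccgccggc
Tyk2 (chr9:21131276-21131525, minus strand): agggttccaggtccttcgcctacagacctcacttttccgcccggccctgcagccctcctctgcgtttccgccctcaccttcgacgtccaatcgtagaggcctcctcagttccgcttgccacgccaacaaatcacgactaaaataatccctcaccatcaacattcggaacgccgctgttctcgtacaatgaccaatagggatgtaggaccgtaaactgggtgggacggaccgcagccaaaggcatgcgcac
Stat3 (chr11:100939541-100939790, minus strand): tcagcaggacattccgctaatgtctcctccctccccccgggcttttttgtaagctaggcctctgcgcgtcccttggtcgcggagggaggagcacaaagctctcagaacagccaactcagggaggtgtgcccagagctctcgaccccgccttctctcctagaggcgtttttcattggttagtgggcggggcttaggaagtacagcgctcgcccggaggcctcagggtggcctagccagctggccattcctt
The motifs searched on both strands were TTCNNNGAA, the core of sites that many STAT pairs bind, and GAAA followed after any 2 bases by GAAA (TTTC, any 2 bases and TTTC on the other strand), the core of the interferon-stimulated response element that STAT2 binds as part of a complex with IRF9. Of all 32851 RefSeq windows of 300 bases, 8.3% held the TTCNNNGAA motif and 3.44% the response element core. The 9 members had 12 such windows. TTCNNNGAA was in none of them, and the response element core was in 2: the Stat2 window, as TTTCAGTTTC starting 222 bases before the start, and the second of the Stat4 windows, as GAAAGTGAAA 97 bases before. The windows of Stat5a, the member with the largest change and also higher with both OSM and LIF, are not printed. Like those of Jak2, Tyk2 and Stat3, they held no match. A match describes letters, not a bound site, and no match says only that the letters are not in this window.

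Library depth was even, at 29482077 to 30025471 gene counts, and 15603 genes had enough counts to be tested. The muscle identity of the cultures was visible in the 10 myotube markers, none of which was at 0. Their summed level was 23700 to 24960 CPM (counts relative to a library size adjusted with TMM factors) in control libraries, 20590 to 23200 with IL6, 21750 to 23140 with LIF and 21000 to 21200 with OSM. With OSM, 3 of the 10 were called lower and 1, Des, higher, beside 10.6% and 10.8% of all genes. The counts were the same with LIF, where 3.46% of all genes were called lower and 4.20% higher. Markers of other cell types moved as well. The 8 fibroblast markers summed to 1685 to 1748 CPM in control, 1523 to 1734 with IL6, 2004 to 2072 with LIF and 2073 to 2185 with OSM, with Lum and Tcf21 at 0 throughout. Most of that sum was Col3a1 (mean 1433 CPM in control and 2018 with OSM). Pdgfra was higher with OSM too, at a mean of 12.8 CPM against 8.92 in control. Some members of the list went the other way: with OSM, Pdgfrb was called lower (log2 change -0.97) and Col1a1 was at -1.61 (adjusted p = 0.0858). Of the 5 tested, 2 were called higher with OSM and 1 lower, beside 10.8% and 10.6% of all genes. The 8 macrophage markers summed to 8.56 to 9.92 CPM in control, 10.7 to 15.5 with IL6, 14.7 to 15.3 with LIF and 15.0 to 16.3 with OSM, with Aif1 at 0 and 5 of the 8 under 1 CPM in every library. Mrc1 alone made up most of that sum (mean 6.44 CPM in control, 9.22 with IL6, 11.3 with LIF and 10.3 with OSM). The 6 myoblast markers summed to 310 to 344 CPM in control, 308 to 324 with IL6, 333 to 340 with LIF and 365 to 373 with OSM. The part of these shifts in the results below was not tested, and in bulk RNA more cells of a type cannot be told apart from more RNA per cell.

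Of the 9 members, 8 were expressed in every library. Compared per length (CPM per kilobase of annotated exon, n = 2 libraries), Jak1 had the highest control level at 39.6 ± 1.80 (SD), followed by Stat3 at 17.9 ± 0.046 and Stat5b at 11.9 ± 0.12. Stat6 at 7.07 ± 1.25 and Jak2 at 6.59 ± 0.51 overlapped in their spread. Stat2 at 4.43 ± 0.20, Stat5a at 3.58 ± 0.073 and Tyk2 at 3.35 ± 0.019 were lowest. With the length of the longest transcript instead, Stat5a (6.46 ± 0.13) came above Stat2 (5.98 ± 0.26) and within the spread of Jak2 (6.59 ± 0.51). The order of Stat5a and Stat2, and the distance of Stat5a from Jak2, thus depend on the length used. Jak1, which serves many cytokine receptors, made up 74.7% to 81.0% of the 3 JAKs' summed level per kilobase over the 8 libraries, and Stat3 36.3% to 41.3% of the STATs'. These shares too depend on the length used. With the longest transcript they were 79.65% to 84.58% for Jak1 and 40.94% to 47.04% for Stat3. Stat4, a factor best known from lymphocytes, had 1 count in control replicate 1 and 0 counts in the other 7 libraries. A count of 0 allows up to 3 counts in a library, counting error only, and Stat4 was not tested. Of its exon bases, 26.7% overlap Gm28177 on the same strand, and it shares 28.6% of its 50-base stretches with that gene, so reads from there may not be attributed to Stat4.

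With OSM, all 8 tested members were higher than in control at an adjusted p under 0.05 (edgeR's quasi-likelihood test, Benjamini-Hochberg adjustment over all genes). Of all 15603 genes, 21.4% were called in that comparison, 10.8% higher and 10.6% lower. With LIF, 4 of 8 members were called, all higher (Stat2, Stat5a, Jak2 and Stat3), against 7.66% of all genes called, 4.20% higher and 3.46% lower. With IL6, 0 of 8 were called, and 0.00% of all genes. The median log2 change of the 8 members was 0.39 with OSM, 0.27 with LIF and 0.060 with IL6, where the median over all genes was -0.0029, -0.0079 and 0.00061. Both OSM libraries lay above both control libraries for 8 of 8 members and both LIF libraries for 7 of 8, which held for 29.9% and 25.2% of all genes. These 3 comparisons share the same 2 control libraries.

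**Figure D1:**
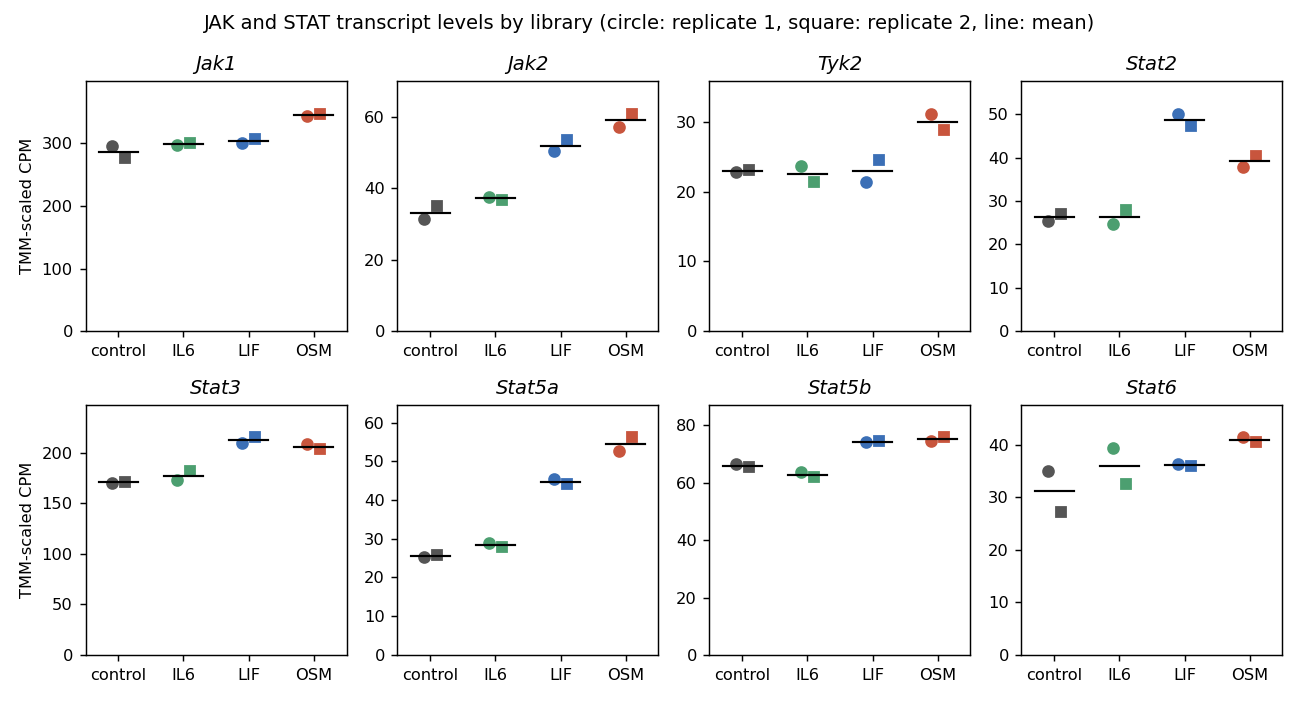
TMM-scaled CPM (y axis, from 0) of the 8 expressed members in each library, by group (x axis); circles are replicate 1, squares replicate 2 and lines the group mean. The OSM points of each member lie above both control points, and so do the LIF points of each member but Tyk2. For Tyk2 the OSM points alone stand clear of the control points.

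Jak2 had the largest change among the kinases. This JAK associates with gp130 and with the receptors for growth hormone and erythropoietin. Its level was 31.3 and 35.0 CPM in the control libraries, 37.6 and 36.8 with IL6, 50.4 and 53.6 with LIF, and 57.2 and 60.9 with OSM. Both OSM libraries were above both LIF libraries, which were in turn above all control and IL6 libraries. The log2 change was 0.83 (SE 0.076, adjusted p = 4.07e-06) with OSM, a 1.78-fold level, and 0.65 (SE 0.077, adjusted p = 0.000249) with LIF. The direct OSM and LIF difference was 0.18 (95% interval 0.024 to 0.35, adjusted p = 0.172) and did not pass.

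Jak1, the kinase on which gp130 signalling depends most, changed less. The control libraries had 295 and 277 CPM, IL6 297 and 300, LIF 300 and 308, and OSM 344 and 348. The OSM libraries stood above the rest, and the remaining groups lay close together. The OSM change was 0.27 on the log2 scale (SE 0.058, adjusted p = 0.0040), or 1.21-fold. With LIF it was 0.089 (95% interval -0.036 to 0.21, adjusted p = 0.442).

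Tyk2, the JAK of the type I interferon and interleukin 12 receptors that also binds gp130, was at 22.9 and 23.1 CPM in control, 23.8 and 21.4 with IL6, 21.5 and 24.6 with LIF, and 31.2 and 28.9 with OSM. The OSM libraries did not overlap any other group, and the other 3 groups overlapped each other. The log2 change was 0.39 with OSM (SE 0.093, adjusted p = 0.0092) and 0.0039 with LIF (95% interval -0.20 to 0.21, adjusted p = 0.993). Without OSM replicate 1 the OSM change was 0.33 with an adjusted p of 0.112. Of the exon bases of Tyk2, 8.07% overlap a gene on the opposite strand, and the strand setting of the counting is not given in the sources used here.

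Stat5a had the largest change of any member. STAT5A and STAT5B are close relatives that respond to growth hormone, prolactin and several interleukins. Stat5a was at 25.2 and 25.9 CPM in control, 28.9 and 28.0 with IL6, 45.3 and 44.2 with LIF, and 52.8 and 56.2 with OSM. The 4 groups did not overlap, in the order control, IL6, LIF and OSM. The log2 change was 1.09 with OSM (SE 0.072, adjusted p = 2.07e-07), a 2.13-fold level. It was 0.81 with LIF (SE 0.072, adjusted p = 2.40e-05), while the IL6 change was 0.15 (95% interval -0.0062 to 0.31, adjusted p = 0.943).

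The change of Stat5b, the close relative, was smaller. Its libraries had 66.4 and 65.5 CPM in control, 63.6 and 62.0 with IL6, 74.3 and 74.4 with LIF, and 74.6 and 75.8 with OSM. The LIF and OSM libraries lay above the control libraries, which lay above those of IL6. The OSM change was 0.19 (SE 0.060, adjusted p = 0.038) and the LIF change 0.17 (SE 0.060, adjusted p = 0.11). The OSM call was lost without any one of 6 libraries, with adjusted p of 0.0949 without control replicate 1, 0.105 without control replicate 2, 0.0789 and 0.0787 without LIF replicates 1 and 2, and 0.140 and 0.179 without OSM replicates 1 and 2, and also with DESeq2 (0.0781), with no filter on low counts (0.0663) and with the 2 compared groups alone (0.0556).

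Stat5a was a larger part of the Stat5a and Stat5b counts together in the LIF and OSM libraries. The share was 27.5% and 28.4% in control, 31.2% and 31.1% with IL6, 37.9% and 37.3% with LIF, and 41.4% and 42.5% with OSM, with no overlap between groups. The difference in change between the genes was not tested. Stat5a shares 10.8% of the 50-base stretches of its longest transcript with Stat5b, and Stat5b shares 11.8% with Stat5a, so reads from those stretches may not be attributed to either.

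Stat2 was the member called higher with LIF than with OSM. STAT2 joins with IRF9 and a second STAT to carry type I interferon signals to genes with the response element, whose core is the motif capitalised in the Stat2 promoter run. Stat2 was at 25.5 and 27.1 CPM in control, 24.7 and 28.0 with IL6, 50.1 and 47.2 with LIF, and 37.9 and 40.5 with OSM. The control and IL6 libraries overlapped, and both LIF libraries were above both OSM libraries. The log2 change was 0.89 with LIF (SE 0.083, adjusted p = 3.23e-05), a 1.85-fold level, and 0.58 with OSM (SE 0.083, adjusted p = 0.000252), a 1.49-fold level.

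Stat3 rose by a similar, small amount with both cytokines. The libraries had 170 and 171 CPM in control, 173 and 182 with IL6, 210.0 and 215 with LIF, and 209 and 204 with OSM. The LIF and OSM libraries lay above all control and IL6 libraries, and the lower LIF library was just above the higher OSM library. The log2 change was 0.32 with LIF (SE 0.057, adjusted p = 0.0041) and 0.27 with OSM (SE 0.057, adjusted p = 0.0038), or 1.25-fold and 1.21-fold. Without LIF replicate 2 the LIF adjusted p was 0.086, and without OSM replicate 1 the OSM adjusted p was 0.0567.

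Stat6, the factor of interleukin 4 and interleukin 13 signalling, had the widest spread of the 8 relative to its mean in the control and IL6 groups, though not with LIF or OSM. Its libraries had 35.0 and 27.2 CPM in control, 39.4 and 32.5 with IL6, 36.3 and 35.9 with LIF, and 41.4 and 40.4 with OSM. The control libraries spanned a wider range than the distance from the higher of them to the OSM libraries. The OSM change was 0.40 (SE 0.114, adjusted p = 0.027), and the change over all groups together did not pass (adjusted p = 0.131), unlike that of the other 7 tested members. The OSM call was lost without control replicate 2 (log2 change 0.23, adjusted p = 0.161), OSM replicate 1 (0.152) or OSM replicate 2 (0.108). The LIF change was 0.22 (adjusted p = 0.327), and without control replicate 1 it was 0.41 (adjusted p = 0.0479). Of all genes, 17.4% passed the test over all groups.

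**Figure D2:**
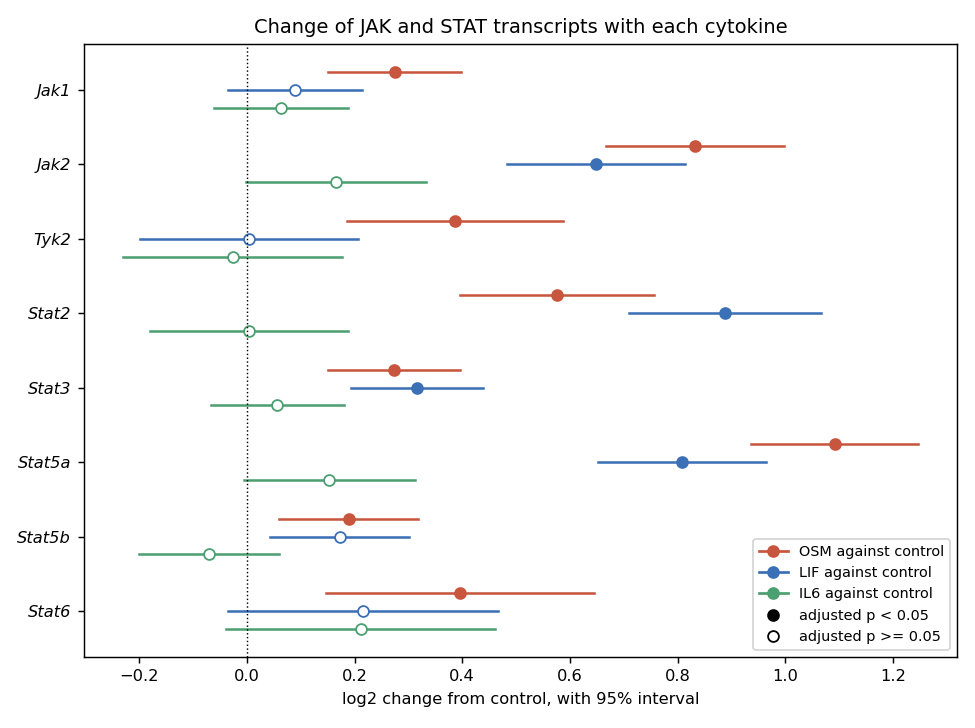
Log2 change from control (x axis) with its 95% interval for each expressed member (y axis) with OSM, LIF and IL6; filled points passed an adjusted p of 0.05. All 8 OSM points and 4 LIF points are filled, and every IL6 interval includes 0.

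The IL6 comparison called no member. The 8 log2 changes lay between -0.070 (Stat5b) and 0.21 (Stat6), the lowest adjusted p was 0.943, and 0 of 8 had an unadjusted p under 0.05. DESeq2 called 0 of 8 as well. Jak2 and Stat5a came nearest, with changes of 0.17 (95% interval -0.0020 to 0.33, unadjusted p = 0.0524) and 0.15 (unadjusted p = 0.0583). Over all genes, edgeR called 0 with 795 at an unadjusted p under 0.05, and DESeq2 called 19. Leaving out IL6 replicate 2 gave 202 calls over all genes, control replicate 2 gave 14 and IL6 replicate 1 gave 3, with 0 members called in each case. Both IL6 libraries were above both control libraries for 4 of the 8 members, and both were below for 1. The same held for 14.0% and 14.1% of all genes.

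OSM and LIF were then compared directly, which the comparisons with control cannot do. Here 3 of 8 members were called, 2 higher with OSM and 1 lower, where 8.04% of all genes were called, 4.01% higher and 4.04% lower. Tyk2 was higher with OSM by 0.38 on the log2 scale (SE 0.093, adjusted p = 0.021) and Stat5a by 0.28 (SE 0.069, adjusted p = 0.022), while Stat2 was lower with OSM, by a log2 difference of -0.31 (SE 0.081, adjusted p = 0.029). Jak1 was at 0.19 (95% interval 0.062 to 0.31, adjusted p = 0.0695). The remaining intervals were 0.024 to 0.35 for Jak2, -0.17 to 0.079 for Stat3, -0.11 to 0.15 for Stat5b and -0.066 to 0.43 for Stat6. The calls of Stat2 and Stat5a were lost without any single LIF or OSM library, and that of Tyk2 without any of these but LIF replicate 2. Without LIF replicate 1, LIF replicate 2, OSM replicate 1 and OSM replicate 2 in turn, the adjusted p of Stat2 was 0.304, 0.103, 0.296 and 0.0979, and that of Stat5a 0.162, 0.187, 0.0856 and 0.207. Tyk2 was lost without LIF replicate 1 (0.306), OSM replicate 1 (0.241) and OSM replicate 2 (0.0707). Jak1 was called without control replicate 1 (0.0419), control replicate 2 (0.0378), IL6 replicate 1 (0.0339) or IL6 replicate 2 (0.0340), and with the replicate number as a block (0.0497). With the LIF and OSM libraries fitted alone, Jak1 (0.0018), Jak2 (0.0258) and Stat6 (0.0402) were called as well.

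**Figure D3:**
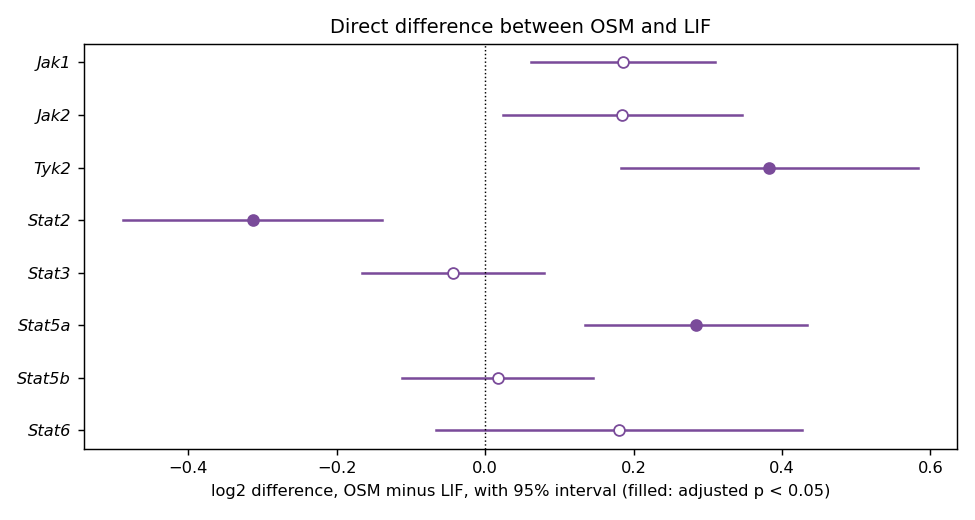
Log2 difference of OSM minus LIF (x axis) with its 95% interval for each expressed member (y axis); filled points passed an adjusted p of 0.05. Tyk2 and Stat5a lie to the right of 0 and Stat2 to the left, while Stat3 and Stat5b lie next to 0.

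Against IL6 in place of control, OSM gave 7 of 8 members called, all higher (all but Stat6, adjusted p = 0.325), with 15.5% of all genes called and 8.02% called higher. The log2 differences of the 7 ran from 0.21 (Jak1) to 0.94 (Stat5a). LIF against IL6 gave 5 of 8, all higher, with 2.78% of all genes called and 1.76% called higher: Stat2 by 0.89, Stat5a by 0.65, Jak2 by 0.48, Stat3 by 0.26 and Stat5b by 0.24. Stat5b passed there at an adjusted p of 0.0496 and did not with the newer form of the same test (0.0513) or with DESeq2 (0.0553). In OSM against IL6, the call of Jak1 was lost without LIF replicate 1, LIF replicate 2, OSM replicate 1 or OSM replicate 2 (adjusted p 0.0587 to 0.150), that of Stat3 without IL6 replicate 1, OSM replicate 1 or OSM replicate 2 (0.0685 to 0.165) and with the compared groups alone (0.0518), that of Stat5b without OSM replicate 1 (0.0650) or OSM replicate 2 (0.0825), and that of Tyk2 without OSM replicate 1 (0.112). In LIF against IL6, the call of Stat5b was lost without any single IL6, LIF or OSM library (0.0666 to 0.348), that of Stat3 without any of these but IL6 replicate 2 (0.0759 to 0.312), and that of Jak2 without LIF replicate 2 (0.101). With the compared groups alone, Stat3 (0.0625) and Stat5b (0.0970) were not called there.

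The genes around the members were described from lists of pathway genes. The share of all 15603 genes called was 21.4% with OSM (10.8% higher and 10.6% lower) and 7.66% with LIF (4.20% higher and 3.46% lower). Among 18 tested receptors that bind JAKs, 9 rose and 1 fell with OSM (median log2 change 0.28), and 6 rose with LIF (0.20). Il13ra1 and Il4ra, the chains of the receptor that STAT6 serves, rose by 1.495 and 1.78 with OSM and by 1.14 and 1.06 with LIF, and were higher with OSM than with LIF by 0.35 (adjusted p = 0.0054) and 0.72 (adjusted p = 8.85e-05). Lepr, the leptin receptor, had 0.549 and 1.41 CPM in control and 8.07 and 8.02 with OSM. Of the receptor chains for these cytokines, Osmr rose by 0.61 with OSM and 0.67 with LIF, Il6ra by 1.01 and 0.61, and Lifr by 0.45 with OSM (LIF 0.27, adjusted p = 0.111). Il6st, which encodes gp130, was at -0.20 with OSM (adjusted p = 0.0644) and -0.032 with LIF (adjusted p = 0.871). Il2rg, the common chain of interleukin 2 type receptors, fell by 1.17 with OSM.

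Among 24 inhibitors and adaptors, 5 rose with OSM (median 0.050) and 2 with LIF (median 0.044), with none called lower. The share called in either direction was near that of all genes (21.4% and 7.66%). These calls were all higher, and 10.8% and 4.20% of all genes were called higher. Socs3, which blocks JAKs bound to gp130, was at 41.6 and 44.2 CPM in control, 50.6 and 53.3 with IL6, 117 and 120 with LIF, and 110 and 111 with OSM, a log2 change of 1.47 with LIF and 1.37 with OSM. Ptpn1, a phosphatase that acts on JAK2 and TYK2, rose by 0.49 with OSM and was higher with OSM than with LIF by 0.35 (adjusted p = 0.0093). Socs2 rose by 0.40 with OSM and 0.46 with LIF, while Socs5 and Sh2b2 rose with OSM by 0.31 and 0.36. Of 11 tested partners and nuclear factors of STATs, 2 fell with OSM, Ndufa13 (log2 change -0.36) and Lmo4 (-0.35), and with LIF Ndufa13 was called (-0.32). These counts too are near the shares of all genes called in either direction (21.4% and 7.66%), where 10.6% and 3.46% were called lower.

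Of 18 tested STAT3 targets, 8 rose and 1 fell with OSM, and the counts were the same with LIF (medians 0.27 and 0.24), beside 10.8% of all genes called higher with OSM and 4.20% with LIF. Timp1, an inhibitor of metalloproteinases, rose by 1.81 with OSM and 0.81 with LIF, and Serpina3n, an acute phase protease inhibitor, by 5.69 and 4.01. Mcl1, a survival factor, rose by 0.60 and 0.26, and Ccnd1, a cyclin of the cell cycle's start, fell with both (log2 change -0.79 and -0.98). Of 7 tested STAT5 targets, 2 rose with OSM and with LIF, Socs2 and Pim2 (Pim2 by 0.55 with OSM and 0.57 with LIF), and 0 with IL6. Of all genes, 21.4%, 7.66% and 0.00% were called, with 10.8% called higher with OSM and 4.20% with LIF. Cish, a well known STAT5 target, was at 0.48 with OSM (adjusted p = 0.107) and 0.061 with LIF (adjusted p = 0.913).

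Of 17 tested genes with interferon-stimulated response elements, 5 rose and 2 fell with OSM (median -0.088), and 4 rose with LIF (median 0.067). Of all genes, 21.4% and 7.66% were called, with 10.8% and 4.20% called higher. In IL6 against control the list median was -0.27. Against IL6, 5 were called higher with OSM (median 0.18) and 5 with LIF (median 0.50), beside 8.02% and 1.76% of all genes. Rsad2, an antiviral enzyme, was at 8.20 and 9.37 CPM in control, 12.1 and 12.4 with IL6, 72.8 and 67.6 with LIF, and 52.3 and 67.3 with OSM. Ifit1, an RNA sensor of the same response, rose by 2.87 with LIF and 2.38 with OSM and its OSM minus LIF difference was -0.49 (adjusted p = 0.0087). Ifih1 rose by 1.77 with OSM and 1.67 with LIF. Ifit3 rose by 0.91 with OSM and 0.99 with LIF, and Isg15 rose by 0.93 with OSM (LIF 1.07, adjusted p = 0.0535). Bst2 fell with OSM (log2 change -0.83), as did Ifi44, from 6.69 and 1.75 CPM in the control libraries to 0.479 and 0.805. Irf9, the partner of STAT2, was at -0.24 with OSM (adjusted p = 0.464) and -0.11 with LIF (adjusted p = 0.831). Usp18, an inhibitor of the interferon receptor, was at -1.41 (adjusted p = 0.0974) and -0.56 (adjusted p = 0.613). Control replicate 1 was above control replicate 2 for Irf9 (14.3 and 8.13 CPM), Usp18 (1.235 and 0.403), Bst2 (26.2 and 18.1) and Isg15 (10.3 and 4.77). The same held, by differing amounts, for the other tested genes of this list except Irf1, Ifit1 and Rsad2. The list medians against control take both control libraries together. Irf9 lay between these control libraries with OSM (9.305 and 9.66) and with LIF (10.4 and 10.4). With OSM, Usp18 (0.308 and 0.302) and Bst2 (12.0 and 12.9) lay below both. Without a filter on low counts, 7 genes of this list were called with LIF. In IL6 against control, edgeR called 0 genes of the 6 lists, with 17 of 90 (18.9%) at an unadjusted p under 0.05 beside 5.10% of all genes, and DESeq2 called 1, a receptor. Il2rg, Sh2b2, Ifit3, Isg15, Ifi44, Irf1, Col3a1, Col1a1, Pdgfra, Pdgfrb and Mrc1 are named outside the rule for named genes, after their values were seen.

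**Figure D4:**
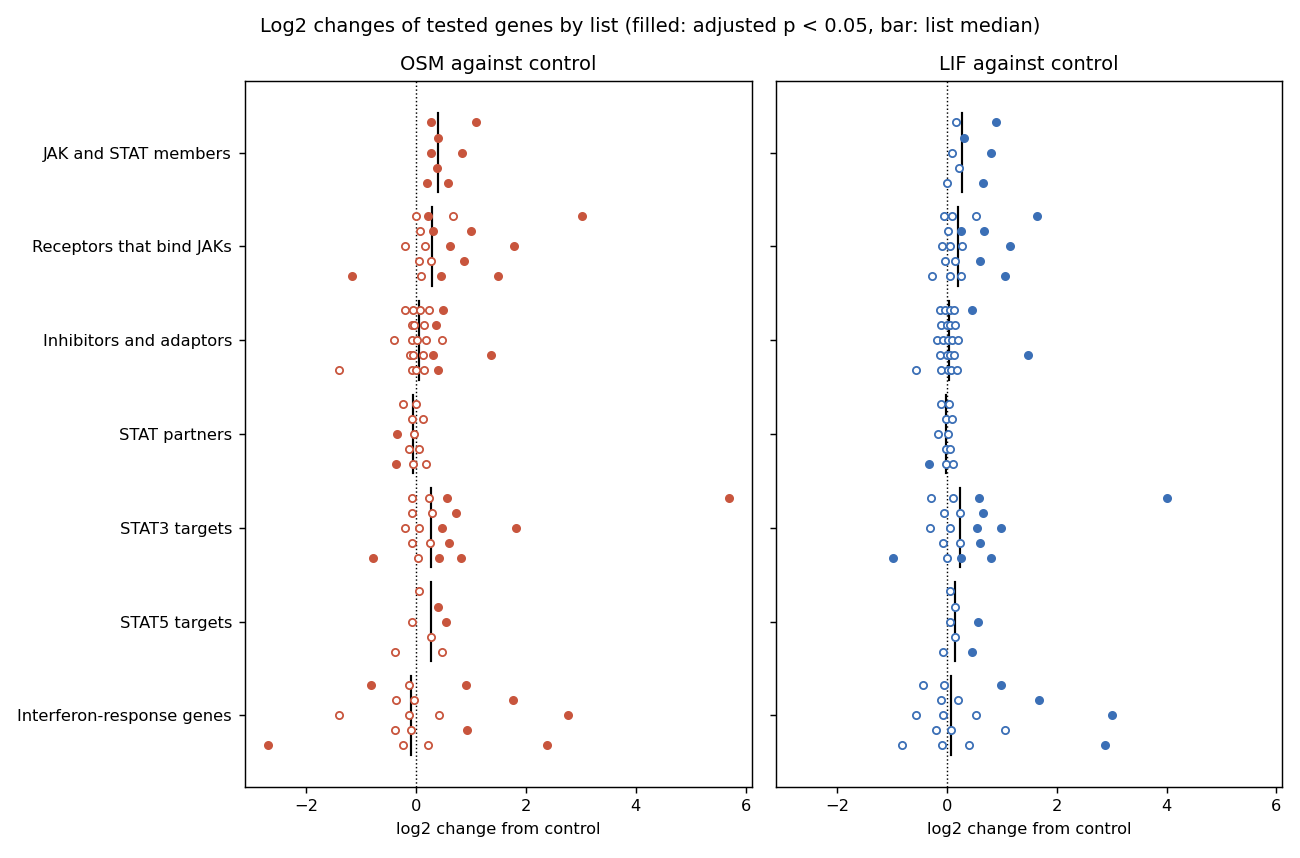
Log2 change from control (x axis) of every tested gene of the members and the 6 pathway lists (y axis) with OSM (left) and LIF (right); filled points passed an adjusted p of 0.05, bars are list medians, and vertical spread within a list is for display. The members' points all lie to the right of 0, while the medians of the inhibitors, STAT partners and interferon-response genes lie near 0.

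The genes whose levels were most like those of a member were ranked by Pearson r of log2 CPM over the 8 libraries among 10735 protein-coding genes. The points share the 4 groups, so a high r follows wherever genes differ between groups in the same order, and no p is given. For Jak2 they were Btg2 (0.995), Cntnap1 (0.990) and Glis3 (0.989). Cntnap1 (0.990) was also near Stat5a, after Itga4 (0.992) and Mxd1 (0.990). For Stat2 they were Olfml3 (0.991), Psme4 (0.987) and Des (0.983), the intermediate filament gene of muscle, which was higher with LIF (0.55) than with OSM (0.30). For Stat3 they were Tgfb3 (0.991), Rps6ka1 (0.991) and Socs3 (0.989), and for Tyk2 Arhgef19 (0.981), Notch2 (0.980) and Disp2 (0.974). The nearest genes of Jak1, Stat5b and Stat6 were Slc25a1 (0.986), Hectd3 (0.992) and Ifi204 (0.981).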

How the data were processed

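RNA was measured in 8 libraries of mouse primary myotubes, made with a stranded poly(A) kit per the labels' protocols. The authors deposited unnormalised counts of reads for each gene, 1 file per library, with replicates kept apart. The submitters' processing notes name Trim Galore 0.6.5, STAR 2.7.3a, HTSeq 0.11.1, DESeq2 1.34.0 and the build GRCm39; the annotation release and strand setting are not given in the sources used here. Reads assigned to no gene, 11.7% to 12.7% of alignments, were left out. Of 53647 identifiers, 52093 were given a symbol from GENCODE M21 (GRCm38), used for names, lengths and overlaps only.

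Genes were filtered with filterByExpr (minimum count 10), scaled by TMM and tested with edgeR 4.0.16 in R 4.3.3: the quasi-likelihood F test of glmQLFit at its default method with robust estimation, a mean per group, all 8 libraries, 4 residual degrees of freedom. P-values were adjusted over 15603 genes per comparison and called under 0.05. Fold changes are log2, with a Wald SE. In all, 7 forms of this fit were compared by their calls over all genes (3286 to 3335 in OSM against control). The default of glmQLFit, as the written design names it, is reported, and this was settled after results of the newer quasi-likelihood method had also been seen. The newer method is an alternative chosen after seeing the data, and it changes 1 member's call. DESeq2 1.42.0 was another alternative.

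The members, lists and markers were chosen with earlier results of these data known. Named genes are all members, up to 4 genes a list by lowest adjusted p with OSM among those called with OSM or LIF, 8 set regulators and receptors, and the 3 most alike genes per member with a mean of at least 100 counts. Replicate numbers were not treated as pairs: deviations of same-numbered libraries correlated at 0.0071 to 0.18 and the labels name no shared source. Intervals for counts cover counting error only, since the reads carry no molecular identifiers. Between the libraries of a group, the mean chi-square was 2.97 to 12.0 per gene, above the 1 of counting error alone.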

Additional observations from a re-analysis of the deposited data

How the results depend on the processing

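The calls of Jak2, Stat2 and Stat5a with OSM and with LIF, and of Jak1 with OSM, were kept in each of the 14 other settings run, and no change of a member with OSM against control, OSM against LIF or OSM against IL6 turned its direction. Leaving out 1 library in turn, with the lone library left assumed to vary like the other groups, gave 4 to 8 members called in OSM against control, 3 to 5 in LIF against control, 0 to 4 in OSM against LIF, 3 to 7 in OSM against IL6, 2 to 5 in LIF against IL6 and 4 to 8 over all groups, with 0 in IL6 against control. Fitting the compared groups alone gave 6 calls in OSM against LIF, 6 in OSM against IL6 and 3 in LIF against IL6. With the replicate number as a block, which the labels give no reason to read as a pairing, members called were 8 with OSM, 4 with LIF, 0 with IL6, 4 in OSM against LIF, 7 and 5 against IL6, and 8 over all groups. Of the pathway list counts against control, those that moved by over 1.5 times were 4 STAT5 targets with OSM under the block, 7 interferon-response genes with LIF and 3 with IL6 without a filter on low counts, and 1 receptor with IL6 under the block, DESeq2 or no filter. Over all genes, IL6 calls were 97 without the filter, 19 with DESeq2 and 9 under the block. Directions turned where the change was near 0. Leaving out 1 library in turn, Tyk2 ran from -0.099 (without LIF replicate 2, and -0.0018 without control replicate 1) to 0.0996 in LIF against control, from -0.104 to 0.048 (without IL6 replicate 2) in IL6 against control, and from -0.073 (without LIF replicate 2, and -0.044 without IL6 replicate 2) to 0.126 in LIF against IL6. Stat2 in IL6 against control ran from -0.087 (without IL6 replicate 2, and -0.041 without control replicate 1) to 0.0892, and Stat6 in LIF against IL6 from -0.13 (without IL6 replicate 2, and -0.0020 without LIF replicate 1) to 0.15. The cause was not tested. Stat4 was not detectable beyond 1 count at this depth.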
